A study of Mus musculus with 6 samples.

Results

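The regions described here are stretches of open chromatin that lay inside the body of a protein-coding gene and ranked among the strongest in every library of young and old bone marrow macrophages. They were chosen as follows. The 50000 peaks with the highest −log10 q were taken from each of the 6 peak lists, peaks on chromosomes 1 to 19 and X that overlapped by 1 bp or more were merged, and a region was kept when all 6 libraries contributed a top peak to it. It also had to be narrower than 2000 bp, lie inside the span of a protein-coding RefSeq gene, be over 1 kb from any protein-coding gene end, and lie in no gene of 500 kb or more. These steps left 12153 of 66216 merged regions, or 12153 of the 33698 regions with a top peak in all 6 libraries. Rank, width and presence in all 6 libraries therefore define the members and are given below only as description, with no test.

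Open chromatin away from gene starts often marks enhancers, short stretches of DNA where transcription factors bind and act on a promoter, and many enhancers lie in introns of the gene they act on or of a neighbour. Intragenic open chromatin can also be an alternative promoter from which a shorter transcript starts. In macrophages, enhancers are commonly bound by the lineage factor PU.1 (encoded by Spi1) together with C/EBP, AP-1 and RUNX factors. ATAC-seq finds open chromatin because a transposase inserts sequencing adapters where DNA is accessible.

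The cells came from wild-type BALB/c mice that were 3 weeks old (young, 3 libraries) or over 78 weeks old (old, 3 libraries). Marrow was released by crushing femora, tibiae and humeri, non-adherent cells were removed, and the adherent cells were expanded in alpha-MEM with 20% fetal bovine serum. They are labelled F4/80+CD169+, after surface proteins encoded by Adgre1 (F4/80) and Siglec1 (CD169). Each library is an Omni-ATAC library of 50000 cells read as paired ends of 125 bp on 4 lanes. The comparison of young with old asks how open chromatin in these cells differs with age. The labels do not say whether the replicates of an age came from separate mice, so p-values reflect only how far these libraries varied among themselves, which can be technical.

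The lists held 215947 to 254410 peaks that covered 48.2 to 66.1 Mb, and read depth is unknown. Young replicates 1 and 3 and old replicate 1 had the 3 largest covered lengths (62.2, 66.1 and 63.8 Mb), and the other young library had 52.4 Mb. Peaks covered 864 to 1443 bp of Adgre1 and 468 to 869 bp of Siglec1 with 1 kb on each side, but neither gene held a member. Of 13 macrophage markers long enough for a member, 6 held 1 or more (Spi1 4, Mrc1 3, and Csf1r, Mertk, Itgam and Cx3cr1 2 each). Fcgr1, Lyz2, Trem2 and Tyrobp were among those without one. Genes of other cell types had peaks as well. The stromal collagen gene Col1a1 had 1377 to 2384 bp under peaks, while the T-cell gene Cd3e had 0 bp in old replicate 2 and up to 414 bp elsewhere. Members lay in 17 of 30 mesenchymal stromal marker genes, 6 of 19 B-lineage genes and 4 of 25 T and NK cell genes, and in none of Cd79a, Cd3e, Col1a1, Col3a1 or Lepr. Cxcl13 had no peak in any library.

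Sequence is shown for members that overlap a RefSeq (GRCm38.p6) start window or hold a microRNA gene. A start window runs from 250 bp before to 50 bp after a RefSeq start, and 994 members (8.179%) overlapped one. The 4 windows below were chosen after the values were seen, to set CpG-rich against CpG-poor starts in genes of macrophage function. Each line gives the 250 bases before the start, 5′ to 3′, with CG pairs and the PU.1 core (GAGGAA or, on the other strand, TTCCTC) in capitals. Nfkb2 encodes the NF-kB subunit p100/p52 and Egr2 a zinc-finger factor of the myeloid lineage. Fcgr3 encodes an activating Fc receptor and Syk the kinase downstream of such receptors.
Nfkb2: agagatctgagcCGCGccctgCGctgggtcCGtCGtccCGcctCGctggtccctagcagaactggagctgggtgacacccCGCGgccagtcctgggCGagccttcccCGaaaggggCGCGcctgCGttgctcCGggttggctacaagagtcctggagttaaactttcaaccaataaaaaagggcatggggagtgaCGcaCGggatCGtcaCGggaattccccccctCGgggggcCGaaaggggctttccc
Egr2: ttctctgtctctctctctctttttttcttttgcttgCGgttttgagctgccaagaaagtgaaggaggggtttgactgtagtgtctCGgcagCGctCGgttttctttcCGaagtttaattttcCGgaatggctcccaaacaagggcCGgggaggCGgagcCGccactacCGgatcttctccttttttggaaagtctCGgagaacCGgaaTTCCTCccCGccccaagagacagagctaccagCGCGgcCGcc
Fcgr3: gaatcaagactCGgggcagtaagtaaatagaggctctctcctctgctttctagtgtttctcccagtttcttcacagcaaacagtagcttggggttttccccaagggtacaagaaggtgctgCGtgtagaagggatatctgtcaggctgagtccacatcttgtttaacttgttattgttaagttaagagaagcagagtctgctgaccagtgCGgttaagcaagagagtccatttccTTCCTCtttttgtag
Syk: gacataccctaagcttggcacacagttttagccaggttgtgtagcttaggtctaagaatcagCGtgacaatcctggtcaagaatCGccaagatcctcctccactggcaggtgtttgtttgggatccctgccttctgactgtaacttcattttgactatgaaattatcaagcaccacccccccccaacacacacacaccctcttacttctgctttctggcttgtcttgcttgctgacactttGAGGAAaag
These stretches lie at chr19:46304487-46304736 (plus strand), chr10:67537316-67537565 (plus), chr1:171059395-171059644 (minus) and chr13:52596632-52596881 (plus). The Nfkb2 and Egr2 stretches hold 21 and 16 CG pairs, and the Fcgr3 and Syk stretches 3 and 2. The PU.1 core occurred once in Egr2, Fcgr3 and Syk and was not found in the Nfkb2 stretch. The members around them ranked in their weakest library at 3176 (Nfkb2), 4490 (Egr2), 28894 (Fcgr3) and 39602 (Syk), where rank 1 is the highest −log10 q of a list.

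MicroRNA genes lay in or overlapped 12 members, with 16 distinct mature sequences of 16 distinct seeds. Those shown lie in the 2 regions called for age in peak strength (Dnm3 and Rcan3), or come from more than 1 member. Capitals mark the seed, bases 2 to 8.
mmu-miR-199a-5p: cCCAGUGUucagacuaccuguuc
mmu-miR-199a-3p: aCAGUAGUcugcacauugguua
mmu-miR-700-3p: cACGCGGGaaccgaguccacc
mmu-miR-700-5p: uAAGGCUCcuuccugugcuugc
The same miR-199a-5p sequence stands in 2 members. One is Mir199a-2, on the plus strand inside Dnm3 at chr1:162217224-162218140, and the other is Mir199a-1, on the minus strand inside Dnm2 at chr9:21496522-21497618. Dnm2 and Dnm3 encode dynamins, the GTPases that pinch off endocytic vesicles. Mir700 lies in Rcan3, a gene of the calcineurin regulator family, at chr4:135416289-135416926.

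The median width of members was 628 bp (quartiles 460 and 827 bp). A median of 365 bp, or 62.7% of the width, was covered by a peak in all 6 libraries, and the median SD of the left edge over the libraries was 30.6 bp. Exactly 1 deposited peak lay in the region in every library for 6964 members (57.3%). Rank varied widely: 453 members were at rank 5000 or better in all 6 libraries, 1264 at 10000 or better, and 3110 were beyond rank 40000 in the weakest library. The members just inside the rank threshold lay in Prelid3a, Tcf12 and Cnksr3, with weakest ranks of 49989, 49993 and 49996. Regions in Mb21d2, Ralgps1 and Ttyh2 fell just outside, at 50003, 50004 and 50005.

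The top of the list held regions of nearly fixed length. The highest-ranked member lay in Cdk8, the kinase of the Mediator complex, at chr5:146260970-146261375, 30.4 kb from the 5′ end of the gene; exons and introns were not separated, because the gene table used here gives spans. It was covered over 405, 403 and 406 bp in the young and 405, 404 and 404 bp in the old libraries (replicates 1 to 3), with ranks between 3 and 5 in every library. After scaling to the library's covered total over all merged regions, this constant length still gave a log2 change of 0.09 (SE 0.11) between ages. Members in Sfi1 (ranks 3 to 7), Zc3h7a (5 to 9), the overlapping genes Cmss1 and Filip1l (6 to 9) and Camk1d (11 to 13) followed. By fold enrichment, the ratio of a peak over its local background, the Sfi1 region was at only 5.46 to 6.76. The library medians of all members were 5.80 to 6.90. The regions in Cdk8, Zc3h7a, Cmss1 and Filip1l, and Camk1d lay at 16.6 to 21.6. Camk1d encodes a calcium/calmodulin-dependent kinase, and its region, at chr2:5379024-5379393, spanned 368 to 370 bp in every library. Whether problem regions of the genome were masked is not given in the sources used here. Of the 10 best-ranked members, 1 per gene, 3 overlapped a start window: those in Aktip, Aph1b and Pfkfb4. The other 7 included Phf19, a Polycomb-associated gene, and Aida.

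Length was most constant, by the SD of log2 covered length, in Ece1 (484 to 486 bp), Slc10a6 (679 to 682 bp), Gphn (337 to 339 bp) and Cdk8. Ece1 encodes endothelin-converting enzyme and Gphn the scaffold protein gephyrin. The most variable were Gsdmc4, Ptpra, Ptk7 and Aaas. The Ptpra region, in a gene for a receptor tyrosine phosphatase, was covered over 741, 173 and 770 bp in the young and 866, 375 and 177 bp in the old libraries. Its long values were those of the 3 libraries with the largest covered length, and the ages overlapped. The Aaas region, in a nuclear pore gene, was covered over 297, 179 and 485 bp in the young and 807, 127 and 212 bp in the old libraries, again with overlap.

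Set beside constitutive regions near gene ends (within 1 kb of a protein-coding gene end, 9909 regions) and between genes (10813 regions), all under the same width limit, members had about the covered length of the intergenic class and a shorter one than regions at gene ends. The median covered length of members was 523, 477 and 538 bp in the young and 531, 435 and 449 bp in the old libraries, a mean of 492 ± 44.5 bp (SD, n = 6). Gene-end regions measured 758 to 894 bp, a mean of 839 ± 60.4 bp, above the members in 6 of 6 libraries. Intergenic regions measured 438 to 540 bp, and the difference from members was −1.5 ± 1.87 bp (SD over 6 libraries). The two-sided exact paired permutation test gave p = 0.03125 for members against gene ends, the smallest that 6 libraries allow, and 0.188 against intergenic regions. Covered length lies within the region width, which the rule limited, and the same regions were measured in every library. A small p here therefore shows only that the sign held in each library. After Benjamini-Hochberg adjustment over 9 comparisons of classes the smallest adjusted p was 0.05625, so none passed 0.05.

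**Figure D1:**
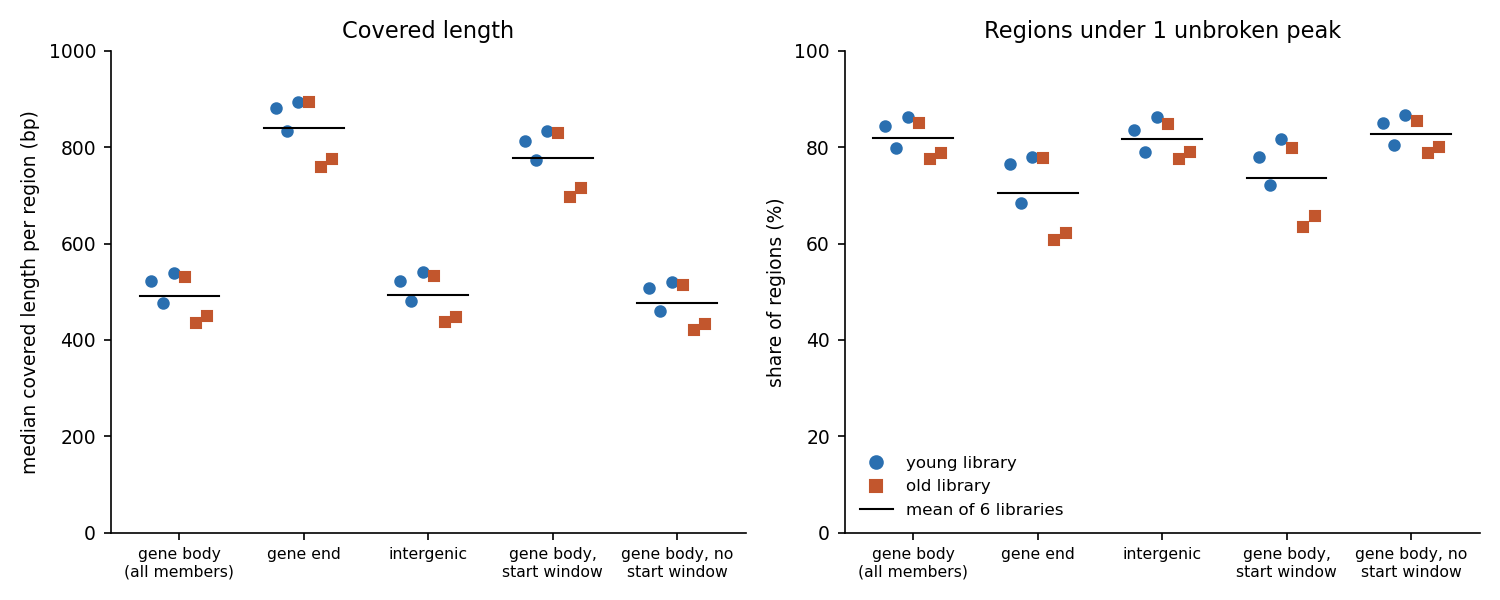
Median covered length per region in bp (left) and share of regions under 1 unbroken peak in percent (right) for constitutive regions by position, with 1 point per library (circles young, squares old) and a bar at the mean of the 6. Members sit with the intergenic regions at a mean near 492 bp, below the gene-end regions at 839 bp, and members over a start window reach 777 bp.

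Members were also more often a single unbroken peak than gene-end regions, 82.0 ± 3.64% against 70.6 ± 7.93% (SD, n = 6), higher in 6 of 6 libraries. Their share lay between 77.5 and 86.2% in single libraries and followed the covered length of the list: the 3 libraries with the largest covered length had the 3 highest shares. The deposited fold enrichment, the authors' ratio of a peak over its local background, had a median of 6.31 in members and 6.54 in intergenic regions and was lower in members in 6 of 6 libraries, by 0.228 ± 0.0587. Each of these carried the same exact paired p of 0.03125 and adjusted p of 0.05625. Against gene ends, members had the lower fold enrichment in 5 of 6 libraries (difference −0.286 ± 0.270, exact paired p = 0.0938). The median rank, which the rule used, was 19949 in members, 20034 in intergenic and 9898 in gene-end regions.

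The 994 members over a start window were longer than the other 11159. They measured 696 to 833 bp per library, against 421 to 521 bp, a difference of 300 ± 17.4 bp (SD over 6 libraries), and were longer in 6 of 6. They were less often unbroken, 73.5 against 82.7%, lower in 6 of 6 libraries. Both differences had an exact paired p of 0.03125 and an adjusted p of 0.05625. A longer region overlaps a start window more easily, so the difference in length is partly set by how the groups were formed. The same regions were measured in every library, so these p-values show only that the sign held and are not read as results. By fold enrichment the difference was −0.0872 ± 0.263 (exact paired p = 0.438).

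A start window was found under 8.179% of members and under 2.03% of the 14790 gene-body regions that lacked a top peak in 1 or more libraries. Among members the share rose with rank, from 3.99% beyond rank 40000 to 34.2% of the 453 at rank 5000 or better in all libraries. Counting start windows inside gene bodies, 867 of the 994 overlapped a start of their own host gene, 184 a start of another gene and 66 both, and the other 9 overlapped only windows that reach outside that class. Windows under a member had a median GC content of 60% and a median CpG ratio (observed over expected) of 0.706. The 4417 windows inside gene bodies without a top peak had 50% and 0.258, and all 32619 start windows had 53% and 0.387. The CpG ratio reached 0.6 in 62.7% of windows under a member, in 13.1% of those without a top peak and in 36.04% of all.

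Motif letters were counted on both strands of the 300 bp windows. The PU.1 core GAGGAA was in 27.5% of windows under a member and 28.2% of all start windows. AP-1 (TGANTCA) was in 7.06 and 7.85%, C/EBP (TTGCNNAA) in 9.60 and 10.9%, and RUNX (TGTGGT) in 14.3 and 16.6%. Each of the 4 motifs was thus slightly less frequent under members than in all windows. The windows inside gene bodies without a top peak held them in 29.3, 8.54, 11.3 and 20.1%, in the same order.

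Members thinned out away from the 5′ end of their host. For the 9540 members (78.5%) in genes whose strand was known, density was 24.0 per Mb of eligible gene body at 1 to 2 kb, 16.1 at 10 to 20 kb and 11.01 at 100 to 500 kb. Gene-body regions that lacked a top peak in some library went from 29.5 to 15.47 per Mb over the same range. Split in 5 equal parts, the part of the gene at the 5′ end held 21.9% of members and the part at the 3′ end 15.9%. The share over a start window dropped from 35.0% at 1 to 2 kb to 3.11% at 100 to 500 kb. The median distance was 30.9 kb for members and 34.6 kb for the other gene-body regions.

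**Figure D2:**
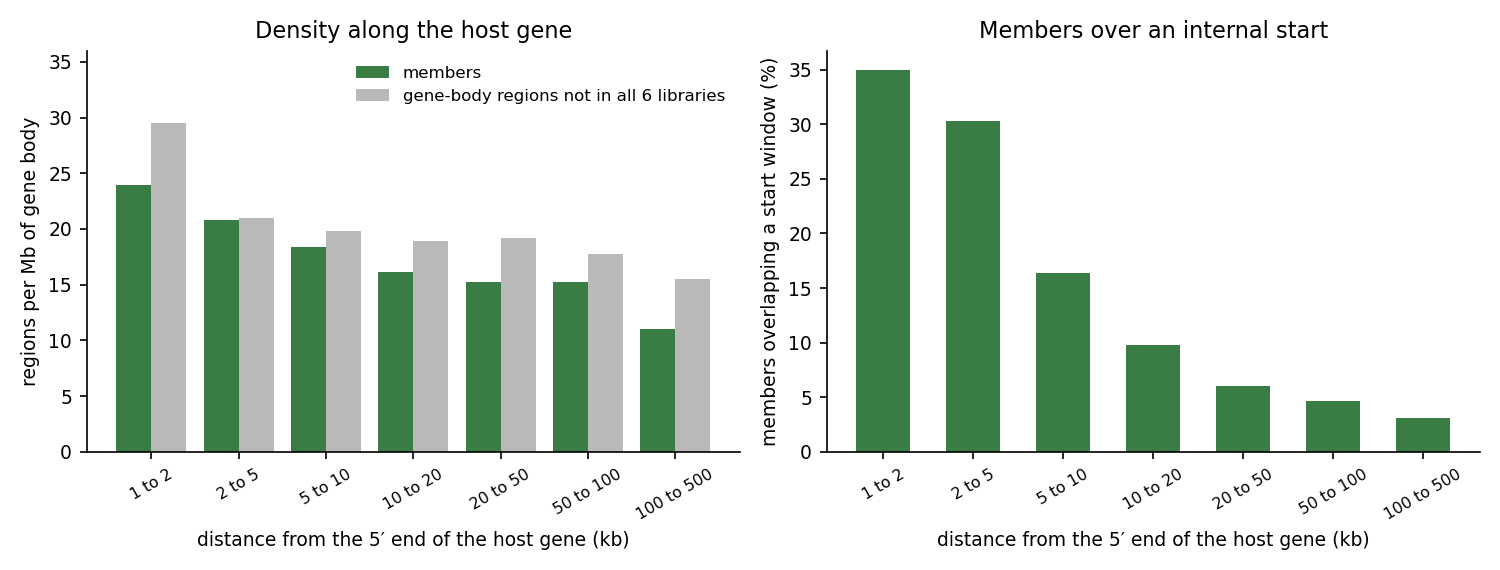
Regions per Mb of eligible gene body (left; green members, grey gene-body regions without a top peak in all 6 libraries) and percent of members over a start window (right) against the distance from the 5′ end of the host gene in kb. Member density declines from 24.0 to 11.01 per Mb, and the share over a start window from 35.0 to 3.11%.

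By chromosome, members numbered 13.1 to 19.03 per Mb of eligible gene body on the 19 autosomes, with chromosome 11 highest, and 3.51 on X. The X was low for other classes too: gene-body regions not in all 6 libraries numbered 6.85 per Mb on X (autosomes 16.3 to 23.1), and constitutive gene-end regions 24.3 per 100 genes (autosomes 36.8 to 55.6). The number of X chromosomes in each library is not given by the labels used here.

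Of 18782 protein-coding genes with room for a member, 5699 (30.34%) held at least 1. A single member was found in 3120 of them, 540 held 5 or more and 83 held 10 or more. Host genes were longer than genes without a member (median 50.2 against 14.7 kb), and the share with a member rose from 6.05% of genes under 10 kb to 72.7% of genes of 200 to 500 kb. Per Mb the order was the reverse at the long end, with 19.7 members at 10 to 20 kb and 10.96 at 200 to 500 kb.

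The genes with most members were Pakap (21, in 462.5 kb), Sgms1 (20, in 267 kb), Zfp469 (19), Tns3 and Zmiz1 (18 each), and Abr, Aopep and Nav1 (17 each). Sgms1 encodes sphingomyelin synthase, Tns3 the focal adhesion protein tensin-3, Zmiz1 a transcriptional coregulator and Abr a regulator of the GTPases Rac and Cdc42. In Sgms1 the 20 members were spread over 201 kb with a median gap of 7.999 kb, and in Zfp469, which encodes a zinc-finger protein, 19 members fell within 157 kb with a median gap of 4.24 kb. The best-ranked of each differed: rank 1325 in the weakest library for Zfp469, 1385 for Abr, 1858 for Zmiz1 and 11591 for Pakap.

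By density the list was led by Npc2, the lysosomal cholesterol carrier, with 5 members in 16.6 eligible kb. St6galnac6, a sialyltransferase gene, followed with 5 in 19.1 kb. Plec, which encodes the cytoskeletal linker plectin, held 11 in 58.4 kb, and Ralgds, an exchange factor for Ral GTPases, 7 in 38.0 kb. Usp2, Cd276, Ampd3 and Rusc2 completed the 8 densest hosts with 5 or more members.

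Gene lists were read against eligible genes of like length (the same length deciles), since long genes hold more members, and no test was made. Of 21 lists, 17 held members more often than genes of like length and 4 less often. Among actin, adhesion and podosome genes, 35 of 37 (94.6%) held a member, where 51.1% of genes of like length did. Podosomes are the adhesion structures on which macrophages crawl. Tns3 held 18, the myosin gene Myo1e 12, the formin gene Fmnl2 10 and the integrin gene Itgb5 9, and Fmnl1 and Was held none. The best-ranked Fmnl2 member, at chr2:52955092-52955496, was covered over 384 to 405 bp and ranked 736 to 2118.

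Genes of small GTPases and their regulators followed with 23 of 26 (88.5%, like length 56.8%). The exchange factor gene Rapgef2 and the scaffold gene Iqgap1 held 11 each and Rin2 9, and Rac2, Rhoa and Rab7 held none. The Iqgap1 member at chr7:80802710-80803779, over a start window, was covered over 1043 to 1070 bp and ranked 1329 to 2259.

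Among transcription factors of the macrophage lineage, 27 of 43 (62.8%, like length 37.2%) were hosts. Etv6 held 11 members, Mef2c 9, Runx1 8, Mitf 7 and Spi1 4, whereas Cebpa, Maf, Irf4 and Klf4 were among those that held none. The best-ranked was in Runx1, 205 kb from its 5′ end at chr16:92620501-92621569, with 933 to 1053 bp covered, 929 of them in all 6 libraries, and ranks of 2378 to 3467. AP-1 and NF-kB factors, which are short genes, held a member in 11 of 22, where 18.6% of genes of like length did, led by Nfkb1 with 4 and Bcl3 with 3. Fos, Jun, Fosl1 and Rela held none.

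Genes of the phagocytic and degradative machinery were hosts more often than genes of like length. Lysosome and phagosome genes were hosts in 20 of 33 (60.6%, like length 33.9%), with Npc2 at 5 members and the cathepsin genes Ctsb and Ctsh at 3 each. Lipid handling genes were hosts in 19 of 31 (61.3%, 38.1%), with Lrp1, a scavenger receptor gene, at 9 and the cholesterol exporter gene Abca1 at 7. Phagocytic, scavenger and Fc receptor genes were hosts in 14 of 31 (45.2%, 35.0%). Innate signalling genes were hosts in 23 of 39 (59.0%, 36.1%): Irak2 held 7 and Syk 6, while Myd88, Traf6 and Tlr9 held none.

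Lists of other cell types lay on both sides of genes of like length. T and NK cell markers were hosts in 16.0% (like length 28.6%), neuronal genes in 42.3% (53.9%) and neutrophil markers in 7.14% (12.5%). B-lineage markers were at 31.6 against 30.8%. Mesenchymal stromal markers were hosts in 56.7% against 40.9% of genes of like length, led by Fbn1, the fibrillin-1 gene, with 9 members and Tgfbr3 with 7. Macrophage markers were hosts in 46.2 against 29.4%.

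**Figure D3:**
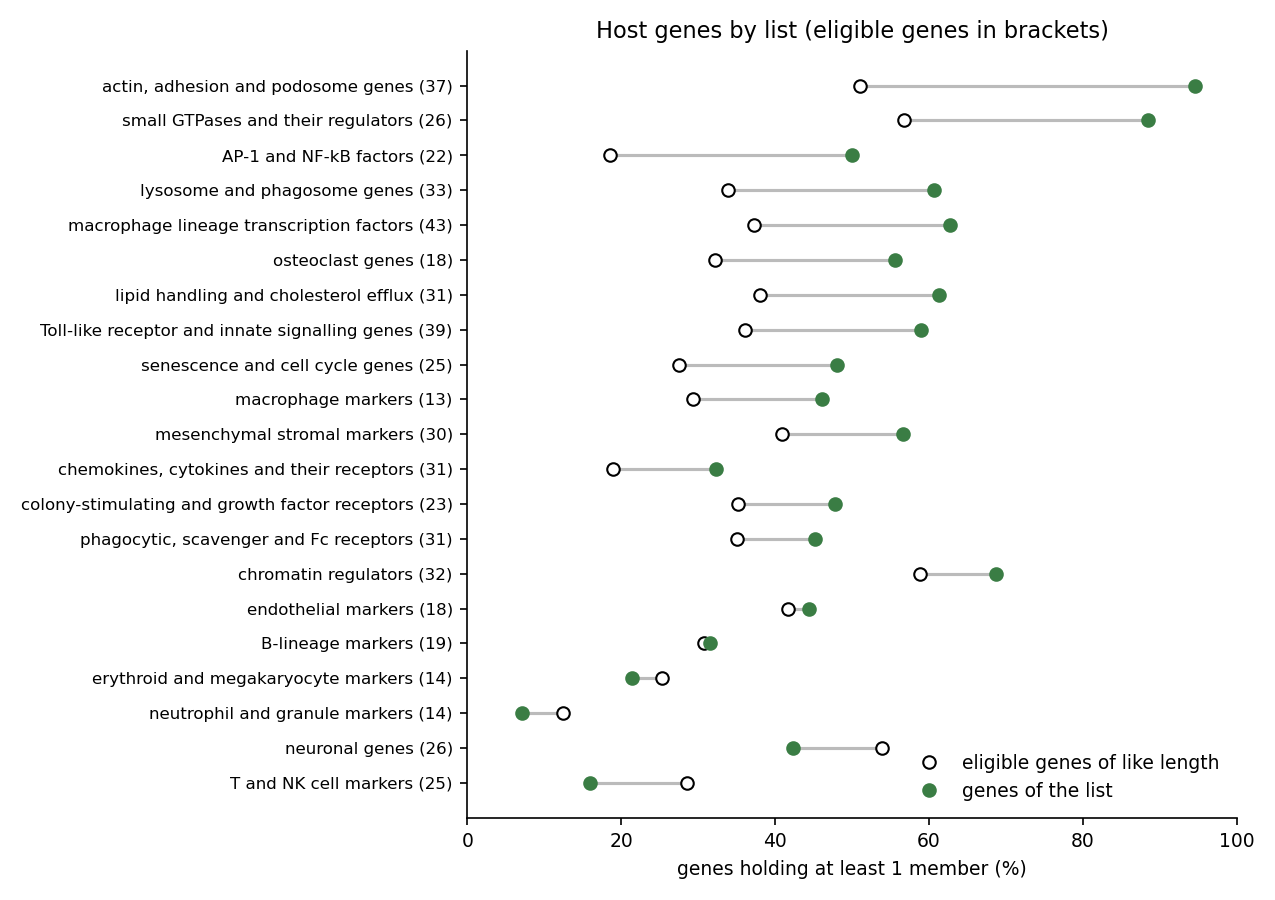
Percent of genes holding at least 1 member for 21 gene lists (filled points; eligible genes in brackets) and for eligible genes in the same length deciles (open points). Actin and adhesion genes (94.6 against 51.1%) and small GTPase genes (88.5 against 56.8%) are at the top, and T and NK cell markers (16.0 against 28.6%) at the bottom.

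Age was tested first on the length of each region that deposited peaks covered, compared by limma on log2(bp + 100). Lengths were scaled to the library's covered total over all merged regions, members included, and not to the whole peak list. No member passed an adjusted p of 0.05 among 11607 tested (546 were under the filter of a mean of 200 bp); of all 55186 regions 15 passed, a background of 0.0272% (longer in old 0.0181%, shorter 0.00906%). At an unadjusted p under 0.05 there were 1014 members (8.736%, background 11.3%). The ages did not overlap in 1599 members (13.78%, background 16.4%), 812 longer and 787 shorter in old. A top peak in all 6 libraries is itself a limit on how far a member can differ. The log2 change had a median of 0.01 in members and lay between −0.35 and 0.27 in the middle 90%, with a median SE of 0.12. Without scaling the median was −0.08 and again no member passed.

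The 4 members with the smallest p were all shorter in old, and were picked by that p after the values were seen. The region in Rab14, a gene of vesicle traffic, at chr2:35195823-35196150, was covered over 328, 314 and 328 bp in the young and 150, 136 and 134 bp in the old libraries. All old values lay below all young values, with a log2 change of −0.75 (SE 0.09, limma adjusted p = 0.0635). The region in Cdh5, the gene of VE-cadherin of endothelial junctions, was covered over 687, 642 and 832 bp in the young and 385, 313 and 317 bp in the old libraries (log2 change −0.81, SE 0.11, limma adjusted p = 0.0635). Rab11fip4 and Hecw2 changed by −0.83 and −0.78 (SE 0.11 each, limma adjusted p = 0.0674 and 0.0698). Csf1r, the receptor gene on which macrophages depend for survival, held 2 members. In the longer the old values (1276, 884 and 910 bp) lay below the young values (1533, 1393 and 1609 bp), with a log2 change of −0.44 (SE 0.08, limma adjusted p = 0.109). In Cxcr5 the ages overlapped (663, 527 and 521 bp in young, 523, 368 and 486 bp in the old libraries, log2 change −0.18, SE 0.13).

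The count depended on which peaks were taken as cover. With only the 50000 strongest peaks of each library, the same peaks that chose the members, limma placed 14 members as longer and 30 as shorter in old among 11585 (0.3798%, background 4.33%; 2.91% longer and 1.43% shorter). Every member has such a peak in all 6 libraries by the rule, whereas other regions can be at 0 bp, so nothing is read from these shares and the values that follow are a description. Of these 44, 43 had the same sign with all deposited peaks. In Il1r1, the interleukin-1 receptor gene, the strongest peaks covered 643, 641 and 570 bp in the young and 200, 192 and 200 bp in the old libraries. With all deposited peaks the old values were 356, 413 and 382 bp, still below the young ones but not past the test (limma adjusted p = 0.239). In Nck2, which encodes an adaptor of actin signalling, the strongest peaks covered 282, 369 and 341 bp in the young and 913, 792 and 622 bp in the old libraries. With all deposited peaks the young values were 591, 420 and 551 bp (limma adjusted p = 0.146). Blm, a DNA helicase gene, was shorter and Fkbp9 longer in old by this measure, and neither passed with all deposited peaks.

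Over all members, the scaled covered length summed to 6.513 ± 0.00592 Mb in young and 6.494 ± 0.00489 Mb in old (SD, n = 3 each; two-sided exact permutation p = 0.1, the smallest that 3 against 3 allow). On this scale, whose total over merged regions includes the members, the old libraries were all below the young ones. Scaling to the whole covered length of a list was not run. Unscaled, the young libraries summed to 6.856, 6.349 and 7.057 Mb and the old ones to 6.953, 5.83 and 5.98 Mb, with overlap (difference −0.4997 Mb, exact permutation p = 0.3), and with the 50000 strongest peaks they overlapped as well (−0.04102 Mb, exact permutation p = 0.6). The median per member was 494 ± 4.49 bp in the young and 489 ± 5.72 bp in the old libraries (exact permutation p = 0.2). Counting as cover only peaks whose −log10 q reached 5, both differences changed sign, to 0.211 Mb and 12.3 bp.

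Peak strength was compared as a second measure, added after the covered-length test had called no member. For each of 65414 regions with a deposited peak in all libraries, the fold enrichment of the best peak, a value related to the −log10 q that chose the members, was ranked within the library, the ranks were turned to normal scores, and limma was applied. Every member has a top peak in all 6 libraries by the rule, which limits how far its strength can differ. A share of members below the background is therefore not read as a result. Limma called 303 members stronger and 243 weaker in old of 12153 (4.493%, background 8.5%; by direction the background was 4.49% and 4.01%). These counts were not stable: leaving out 1 library gave 49 called members without old replicate 3, 56 without young replicate 1, 148 without old replicate 2, 207 without young replicate 3, 305 without young replicate 2 and 939 without old replicate 1. The count over all regions moved as well, between 1192 and 7756 over these leave-outs. With log2 ranks 70 members were called, with covered length as a covariate 319, and with ranks over constitutive regions alone 108. Only 28 of the 546, 18 stronger and 10 weaker in old, were called whichever library was left out. Ranks lay apart between the ages in 1909 members stronger and 1522 weaker in old (28.23%, background 30.6%; 15.9% stronger and 14.7% weaker). Since −log10 q chose the members, its ranks are given as description: they lay apart in 39.25% of members (background 39.1%; 19.8% stronger and 19.3% weaker).

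**Figure D4:**
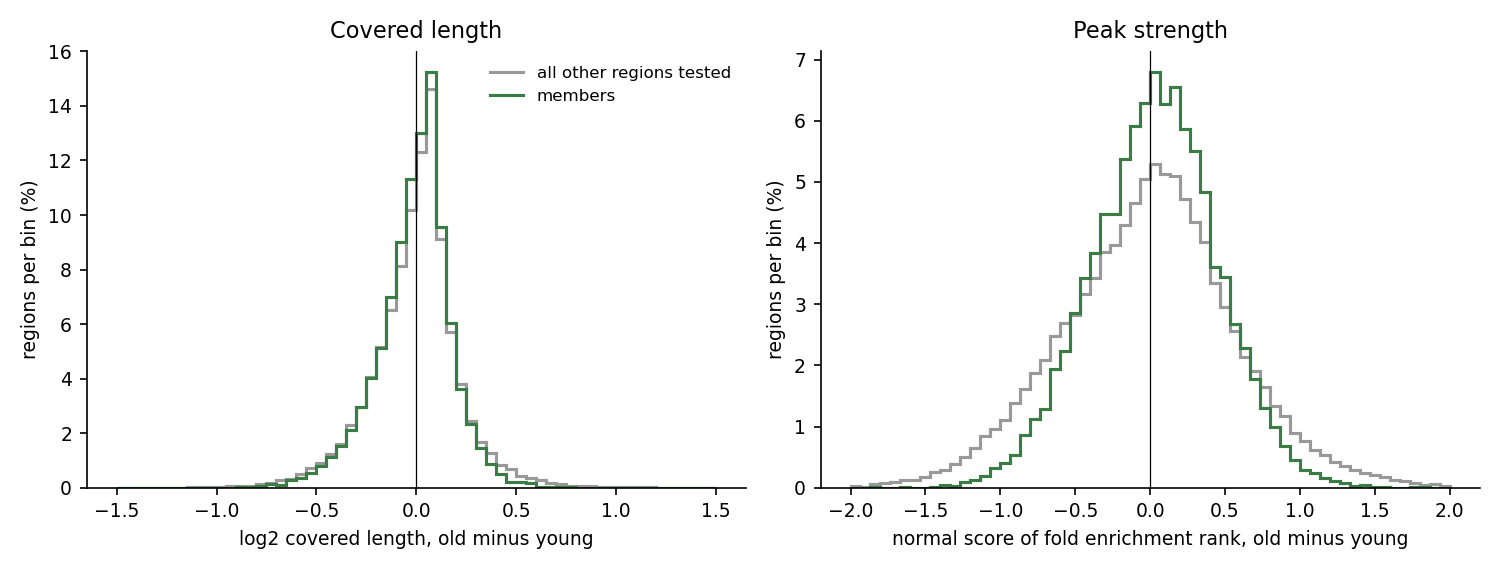
Distribution over regions of the old minus young difference in log2 covered length (left) and in the normal score of the fold enrichment rank (right), in percent of regions per bin, for members (green) and all other regions tested (grey). Members lie around 0 in both panels and spread less widely than other regions in peak strength, where the rule itself limits how far they can differ. A few regions, none of them members, lie beyond the axes.

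The test used ranks within a library, while the fold enrichments printed below are not scaled between libraries. Their median over all members was 6.66, 5.80 and 6.90 in the young and 6.84, 5.82 and 5.86 in the old libraries. Among members called in every leave-out, the strongest rise with age was in Vdr, the vitamin D receptor gene, at chr15:97887380-97888019. The fold enrichment was 6.62, 5.23 and 7.41 in the young and 10.96, 9.98 and 10.1 in the old libraries, and its rank by fold enrichment was 15232 to 30112 in the young libraries and 764 to 947 in the old ones. The difference in normal score was 1.81 (SE 0.21, limma adjusted p = 0.00341). Cobll1 had 7.39, 6.05 and 6.72 in the young and 11.4, 10.8 and 10.2 in the old libraries (difference 1.78, SE 0.20, limma adjusted p = 0.00334). Neither gene's old values overlapped the young ones. A member of Irak2, a kinase gene of interleukin-1 and Toll-like receptor signalling, rose from 3.58, 3.50 and 4.31 to 5.80, 4.88 and 5.83 (difference 1.56, SE 0.28, limma adjusted p = 0.00963). It is at chr6:113656759-113657309 and is not the best-ranked of the 7 Irak2 members. Its call was lost with log2 ranks. Arfgef2, an exchange factor gene for ARF GTPases, Aebp2, a gene of a Polycomb cofactor, and Slc66a1, a gene of lysosomal amino acid export, also rose, by 1.54, 1.48 and 1.46. Scarb2, which encodes the lysosomal membrane protein LIMP-2, rose by 1.22 (SE 0.22).

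The members that fell in every leave-out included Nbas, a gene of Golgi to endoplasmic reticulum transport, at chr12:13518128-13518432. Its fold enrichment was 12.2, 8.86 and 12.8 in the young and 8.17, 5.17 and 6.62 in the old libraries (difference −1.83, SE 0.29, limma adjusted p = 0.00639). Ptpro, a receptor phosphatase gene, had 10.96, 8.81 and 10.8 in the young and 8.49, 5.05 and 5.74 in the old libraries (difference −1.60, SE 0.28, limma adjusted p = 0.00881). All old values were below all young values in both. Cdc42ep4, an effector of the GTPase Cdc42, fell by 1.44, the kinase gene Map3k3 by 1.39 and Smc5, a gene of chromosome maintenance, by 1.37. Soat1, which esterifies cholesterol for storage, held a member that fell by 1.21 (SE 0.21, limma adjusted p = 0.00827). Another Soat1 member, at chr1:156450234-156450872, was called stronger in old, by 0.68 (SE 0.18, limma adjusted p = 0.0425). Of the leave-outs, it kept its call only in that without old replicate 1.

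**Figure D5:**
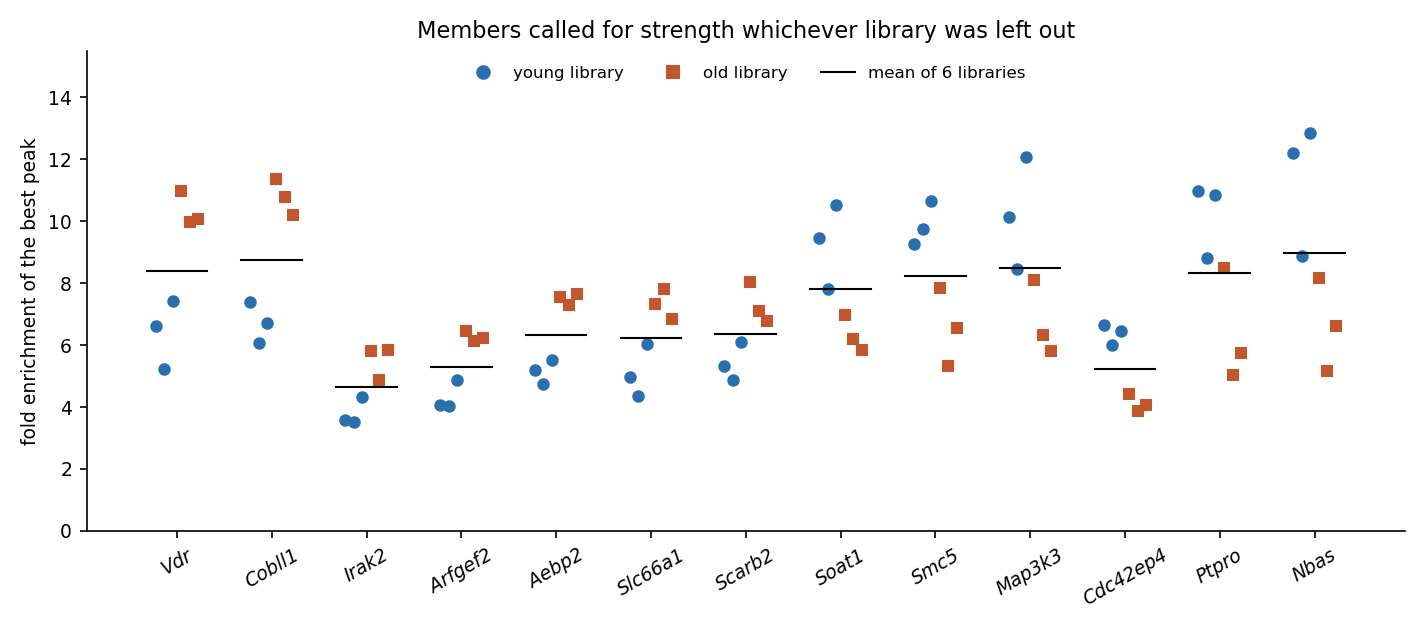
Deposited fold enrichment of the best peak per library (circles young, squares old, bar at the mean of the 6) in the 13 named members called for peak strength whichever library was left out, ordered by the difference between ages. Vdr and Cobll1 sit at 9.98 to 11.4 in the old libraries, above all their young values, and Nbas and Ptpro at 8.81 to 12.8 in the young ones, above all their old values. Fold enrichment is not scaled between libraries here.

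Of 58 named members called with all libraries, 13 were called in each of the 6 leave-outs and 19 in at most 1. With log2 ranks 14 of the 58 still passed. Lgals3, the galectin-3 gene, rose from 3.60, 3.26 and 3.79 to 4.82, 5.18 and 5.03 (difference 1.47, SE 0.29) and was lost without young replicate 1 or old replicate 3. Il1rap, which encodes the shared co-receptor of the interleukin-1 family, fell by 1.37 and kept its call in 3 leave-outs. Of 61 members in innate signalling genes, 1 rose (the Irak2 member above) and 3 fell, 6.557% against 8.5% of all regions and 4.493% of members. Tlr4, the endotoxin receptor gene, fell from 10.4, 8.58 and 10.9 to 8.95, 6.93 and 6.71 (difference −0.93, SE 0.21). Nlrp3 and Irak4 fell by 0.96 and 1.18. Of the leave-outs, Tlr4 and Irak4 kept their call only without young replicate 2 or old replicate 1, and Nlrp3 also without old replicate 2.

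Among 104 members in lineage transcription factors, 1 rose and 4 fell (4.81%, against 8.5% of all regions and 4.493% of members). Runx1 held the riser (4.06, 4.05 and 4.12 in young, 5.65, 5.63 and 5.005 in old), and Stat3, Fli1 and Etv6 held fallers, by 1.06, 1.01 and 0.82. Each kept its call in 1 or 2 leave-outs. None of the 15 members in macrophage marker genes was called. An unadjusted limma p under 0.05 was found in 2 of them (13.33%, against 26.88% of all regions and 20.17% of members). The ages lay apart upward in 2 and downward in 4 of the 15 (40%, background 30.6%). Of 33 in phagocytic and scavenger receptors 3 were called (9.091%, near the 8.5% of all regions): the Scarb2 member above rose and Axl and Itgb2, an efferocytosis receptor and the beta-2 integrin, fell by 0.96 and 0.78. The other Itgb2 members had differences of −0.48 and 0.53 and were not called (limma adjusted p = 0.213 and 0.128). Over the 33 members of this list the ages lay apart upward in 4 and downward in 11 (45.45%, background 30.6%). For the 40 members in lysosome and phagosome genes they lay apart upward in 1 and downward in 10 (27.5%). These shares were not tested.

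Of the 46 members in stromal marker genes, 4 were called stronger in old and 1 weaker (10.87%, background 8.5%). The median difference was 0.37 against 0.04 over all members, and the ages lay apart upward in 19 and downward in 1 (43.48%, background 30.6%). The 7 members of T and NK cell markers had the same median difference of 0.37, with none called. Of these, 1 had an unadjusted limma p under 0.05 and 1 lay apart (14.29% each, against 26.88% and 30.6% of all regions). Their median rank by fold enrichment was 22705 to 33949 in the young and 13104 to 22038 in the old libraries. The median fold enrichment of stromal members overlapped between ages, at 5.37 to 6.04 in young and 5.57 to 6.23 in old. Those called stronger included members of Col5a1, Fbn1 and Twist2, and the one called weaker was in Pdgfrb. The Col5a1 and Twist2 members kept their call in 2 leave-outs, the Pdgfrb member in 3 and the Fbn1 member in 4. All of these calls were lost with log2 ranks. The called member of Twist2, a transcription factor gene of mesenchyme, rose from 7.99, 6.93 and 9.10 to 10.8, 9.96 and 9.26. The other Twist2 member had a difference of 0.12 and was not called (limma adjusted p = 0.793). A member of Fbn1 rose from 6.24, 6.24 and 7.29 to 10.1, 9.09 and 7.34. The stromal members took 39.97 to 41.06 of every 10000 covered bp of members in young libraries and 41.54 to 44.46 in the old libraries. The 15 members of macrophage marker genes took 12.51 to 13.18 in the young and 11.35 to 12.07 in the old libraries, with no overlap for either list. For the 14 B-lineage members the ages overlapped (9.49 to 10.4 in young, 9.32 to 9.82 in old), as they did for T and NK cell markers (5.92 to 7.13 and 6.09 to 6.41). A difference in the mix of cells and a difference within one kind of cell cannot be told apart in these bulk libraries, and the part of stromal cells in the calls was not tested.

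Only 2 genes held 3 or more members called the same way, and they are named because of those calls. Over all regions 4.49% were called stronger and 4.01% weaker in old. The counts per gene were not tested against these shares. All 4 members of Col12a1, a collagen gene of connective tissue, were called stronger in old, with differences of 0.70 to 0.96, and 1 of these 4 was lost in every leave-out, 2 kept their call in 1 and the other in 3. Dnm3 had 3 of its 16 called stronger, including the region with Mir199a-2, whose fold enrichment was 5.61, 5.004 and 5.59 in the young and 6.75, 6.84 and 7.83 in the old libraries (difference 1.12, SE 0.27, limma adjusted p = 0.0262). Of the leave-outs, that call was kept only in the one without old replicate 1. The Dnm2 region with Mir199a-1 had a difference of 0.53 (SE 0.25, limma adjusted p = 0.202). The Rcan3 region with Mir700 fell from 8.09, 6.38 and 8.04 to 5.86, 5.60 and 5.04 (difference −0.92, SE 0.23, limma adjusted p = 0.0295), a call kept without young replicate 2, old replicate 1 or old replicate 2 and lost without any of the others. In 13 of the 508 genes with a called member, members were called in both directions.

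By position, 9 of the 994 members over a start window were called stronger and 4 weaker in old (1.308%, all regions 8.5%). Of the other members 294 were called stronger and 239 weaker (4.776%). Constitutive gene-end regions stood at 0.7872% and intergenic ones at 4.975%. The differences between these shares were not tested. The classes also differed in rank, with a median of 12846 in members over a start window, 20498 in the other members and 9898 in gene-end regions. Called members made up 0.2208% of the 453 at rank 5000 or better in all 6 libraries and 6.334% of the 3110 beyond rank 40000. Position and rank were not separated here. Spearman correlations of the members' fold enrichment over 12153 regions were 0.796 to 0.891 within an age and 0.700 to 0.848 between ages, with no p since regions share libraries. Old replicate 1, whose covered length was like that of young replicates 1 and 3, stood nearer to those libraries than the other old ones did.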

How the data were processed

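The data are ATAC-seq peak lists of 3 young and 3 old macrophage libraries, grouped by their labels, 1 list per library. Per the submitters' processing notes, the build was mm10 and the tools included MACS2 2.1.0.20140616, Bowtie2 2.2.6, cutadapt 1.14, Picard, Trim Galore 0.4.4 and SAMtools; the role of each is not stated there. The deposited values of each peak are the score, the fold enrichment (a ratio over local background), the −log10 p and the −log10 q from the authors' peak caller. These belong to single peaks and were used to rank, filter or describe peaks. Duplicate removal, the transposase shift and masking were not given in those notes or labels, and a longer list can come from deeper sequencing, so depth limits precision to an unknown degree.

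Gene spans and start windows came from RefSeq GRCm38.p6, whose primary chromosomes are those of mm10; 21631 protein-coding genes were used, and strand was taken from the start windows. A gene was eligible if under 500 kb with room over 1 kb from gene ends. Members, gene lists and tests were chosen with earlier results of these data known. Covered length was scaled to each library's covered total over all merged regions. It was tested with limma 3.58.1 (trend, robust) in R 4.3.3 on log2(bp + 100), for regions with a mean of 200 bp or more. The p-values were adjusted by Benjamini-Hochberg over all regions. Fold changes of log2(bp + 100) understate changes of short regions. Fold enrichment ranks were tested the same way. That test, the choice of normal scores among its scalings, and its alternatives were chosen after seeing the data; the scalings' counts were known when normal scores were taken. Both tests were tested on simulated data; for the rank test the first simulation, with 200 changed regions and each region's own spread, recovered none of them at differences of 0.5 and 1. Later ones over the same 65414 regions used moderated spread: with 200 changed, 26% were recovered at a difference of 1 and 100% at 2 (13 unchanged regions called), and with 5000 changed, 64.4% and 99.9% (365 called). The planned tests of rank between classes are not given, because rank chose the members; this was decided after their values were seen, and with them included the smallest adjusted p of the other class comparisons was 0.05357. Other steps used Python 3.11.15 with numpy 2.4.6, pandas 2.3.3, scipy 1.17.1 and matplotlib 3.10.9.

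Named regions were the 10 best ranked in their weakest library, the 8 genes with most members, the 8 called per direction with the largest change and no overlap between ages, 3 per list by rank, 3 on each side of the rank threshold, 4 with the largest and 4 with the smallest SD, and Cxcl13, Cxcr5, Adgre1, Siglec1 and Csf1r. Named outside that rule, after values were seen, were the densest hosts, the smallest p by age, up to 4 called members per list, genes with 3 or more called members, microRNA hosts and the 4 start windows. Same-numbered young and old libraries did not deviate together, so numbers were not treated as pairs.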

Additional observations from a re-analysis of the deposited data

How the results depend on the processing

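The number of members lay between 9044 and 15103 with 40000 and 60000 peaks per list, and between 12394 and 12743 when 1 library was left out. By covered length, the number of regions called for age among all tested was 46 with a pseudocount of 400 bp, 67 with no length filter, 1 with a mean of 400 bp or more, 0 without scaling, 60 with quantile normalization, 1818 with the 50000 strongest peaks, 41 and 1 with a least −log10 q of 2 and 5, and 0 in a fit on constitutive regions alone. Of members, 1 was called with the pseudocount of 400 bp, with no filter and with quantile normalization, and 44 with the strongest peaks. Leaving out 1 library gave 0 to 34 regions and 0 members. Same-numbered young and old libraries correlated at 0.039, 0.081 and −0.047 in their deviations, so the numbers were not taken as pairs. The fit with a replicate block called 0 regions by covered length and, by peak strength, 671 members. By peak strength, all regions called and members among them were 973 and 70 with log2 ranks, 3266 and 319 with covered length as a covariate, and 229 and 108 over constitutive regions alone. Leaving out 1 library gave 1192 to 7756 regions and 49 to 939 members. Differences that changed sign, all far from the threshold, were Clcn4 (−0.04114) and Cxcr5 (−0.05465) with the covariate and, over the libraries left out, Clcn4 (−0.01063 to 0.2423), Cfap43 (−0.1175 to 0.08045, 0.05832 without young replicate 2) and Cxcr5 (−0.1994 to 0.3157). With a least −log10 q of 5, the old minus young difference became 0.2108 Mb in summed and 12.27 bp in median length. At 5 kb from gene ends 6 class differences had an adjusted exact p of 0.04688, because 6 and not 5 of the 9 comparisons reached the smallest p of 0.03125: −228.5 bp and 7.636 percentage points unbroken against gene ends, −5.5 bp and −0.2092 in fold enrichment against intergenic regions, and 256.8 bp and −9.475 points by start window. There, fold enrichment against gene ends turned to 0.0472. As above, the p-values of the length differences show only that the sign held in each library. As description with no test, the median rank of members less that of gene ends was 7412 with 40000 peaks per list and 7215 at 5 kb, that by start window was −5526 and −6049, and that against intergenic regions turned to 64.92 at 5 kb. The share of eligible genes with a member was 25.66% with 40000 peaks, 31.5% at 5 kb and 45.09% in genes of 20 to 200 kb. Against genes of like length, B-lineage markers turned to −0.01728 and erythroid and megakaryocyte markers to 0.2862 percentage points with 40000 peaks, and the latter to 12.48 in genes of 20 to 200 kb. Causes were not tested. Depth is unknown, so the smallest difference that could have been detected is unknown too.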
